A study of Rattus norvegicus with 12 samples.

Results

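Origin licensing, the step that readies chromosomes for DNA synthesis, was followed through rat liver regeneration in 8 genes. The genes were chosen by name: subunits of the MCM helicase (MCM2, MCM3, MCM4, MCM5, MCM6, MCM7), the helicase loader CDC6, 2 subunits of the origin recognition complex under the older symbols ORC1L and ORC6L, and GINS4. Of these 10 names, 8 were found among the 14692 genes of the deposited table, and MCM3 and MCM4 were not analysed here. A mean of at least 1 RPKM over all columns was needed to enter the tests, and 7 of the 8 genes reached it, as did 8459 genes in all. ORC1L, with a mean of 0.73 RPKM, did not.

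Each origin of replication is marked by the origin recognition complex (ORC), to which CDC6 and CDT1 bring the ring-shaped MCM helicase before S phase, a step that geminin (GMNN) blocks afterwards. Kinases (CDK2 with cyclin E, and CDC7) and firing factors such as the GINS complex and MCM10 then switch the loaded helicase on. Most of these genes are transcribed under E2F factors as cells leave rest, and since adult hepatocytes rest until part of the liver is removed, their messages are low in the intact organ.

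Male Sprague Dawley rats, 4 to 5 months old, underwent 2/3 partial hepatectomy (PH), and whole liver was taken 0, 4, 12 or 24 h later. All rats carried a duodenal catheter with a saline infusion. A sham operation (Cont) or a biliary fistula, which drains bile to the outside, was performed 24 h before PH, and 1 of the fistula groups also received sodium taurocholate in the duodenum. The table holds 1 RPKM column (reads scaled to transcript length and library total) for each of the 3 arms at each of the 4 times, 12 in all, and its values average 2 runs, of which 1 used the liver RNA of 1 rat and the other a pool of 3 rats.

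The sources disagree on the fistula arms. In the paper BF is the fistula alone and BA the fistula with bile acid infusion, whereas the sample descriptions say that the samples titled BA had no bile and that those titled BF were infused. The arms are therefore named by the column titles, BF and BA, throughout, and which of them was infused cannot be told from these labels. CYP7A1, the rate-limiting enzyme of bile acid synthesis, is held down by bile acids that return to the liver. It was at 387 RPKM in the BF column at 0 h, 54.9 RPKM in the BA column and 60 RPKM in Cont. At 24 h it was at 334, 68.8 and 57.3 RPKM in the same order, so that BF was the high column at both times. Because the runs were averaged before deposit, the spread between rats and the read depth are unknown. A difference between arms at 1 time is given as a pair of values, without a test.

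Some columns stood apart. ALB took 30.9% of all RPKM in the BA column at 4 h and between 5.60% and 13.4% in the others. Of 9 pancreatic acinar markers, 8 were highest in the BF column at 12 h, led by CTRB1 at 84.7 RPKM, and their summed level ran from 5.22 to 143 RPKM over the columns. The part of either in the values below was not tested. Hepatocyte markers were abundant throughout, with 7 of 8 found and a summed level of 73393 RPKM or more. In whole liver, a change in the share of a cell type and a change in RNA per cell cannot be told apart.

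The promoters are shown first because E2F words are the sequence feature best known for these genes. RefSeq windows (GRCr8, from 250 bases before to 50 after the start site) were found for MCM2, MCM5, MCM6, MCM7 and ORC6L, and none for CDC6, ORC1L or GINS4. The words TTTCCCGC, TTTGGCGC, TTTCGCGC and TTTGCCGC were searched on both strands, and at least 1 of them stands in 716 of all 33469 windows (2.14%). All 4 MCM windows held one. Stretches of 60 bases upstream of the start are printed 5′ to 3′ along the gene, with each word in capitals and 2 overlapping words run together:
MCM2, chr4:122918095-122918154, minus strand: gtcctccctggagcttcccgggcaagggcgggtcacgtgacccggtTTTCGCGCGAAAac
MCM5, chr19:13488583-13488642, plus strand: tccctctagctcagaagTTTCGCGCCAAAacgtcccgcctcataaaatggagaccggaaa
MCM5, chr19:13488753-13488812, plus strand: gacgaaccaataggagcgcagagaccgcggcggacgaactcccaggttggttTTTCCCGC
MCM6, chr13:42404453-42404512, minus strand: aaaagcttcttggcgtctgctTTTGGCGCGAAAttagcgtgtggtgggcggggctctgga
MCM7, chr12:22163369-22163428, minus strand: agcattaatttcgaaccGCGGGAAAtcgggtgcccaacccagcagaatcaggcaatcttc
MCM7, chr12:22163199-22163258, minus strand: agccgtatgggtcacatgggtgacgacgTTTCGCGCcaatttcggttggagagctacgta
ORC6L, chr19:37938857-37938916, minus strand: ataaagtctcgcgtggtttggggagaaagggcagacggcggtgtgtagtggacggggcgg

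In MCM2, MCM5 and MCM6 a pair of words on opposite strands overlapped, with the first base of the pair at -14, -213 and -139 relative to the start site. MCM5 had a further word ending at the base before its start, and MCM7 had separate words with their first bases at -233 and -52. The ORC6L window held none of these words. A match describes the sequence and is not a measured binding site.

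Before PH the licensing genes were low. In Cont at 0 h the 8 genes ran from 0.09 RPKM (ORC1L) to 10.3 RPKM (MCM7), with a median of 1.16 RPKM. At 24 h they ran from 3.22 RPKM (ORC1L) to 118.7 RPKM (MCM7), with a median of 38.3 RPKM. The medians at 24 h were 15.9 RPKM in BF and 39.6 RPKM in BA. MCM7 was thus the highest and ORC1L the lowest of the genes in Cont at both ends of the course, on a scale already divided by transcript length.

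The MCM proteins work together as 1 ring, and the messages read here were closer in level at 24 h than at 0 h. Among the 4 MCM genes the highest was 13.6 times the lowest in Cont at 0 h and 2.78 times at 24 h. The same ratio at 24 h was 2.76 in BF and 2.08 in BA. In between it did not fall steadily. At 4 h, with the lowest gene under 1 RPKM in every arm, it was 20.8 in Cont, 22.8 in BF and 42.3 in BA. At 12 h it was 5.76, 2.72 and 6.66 in the same order, so that BF did not narrow further by 24 h.

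**Figure D1:**
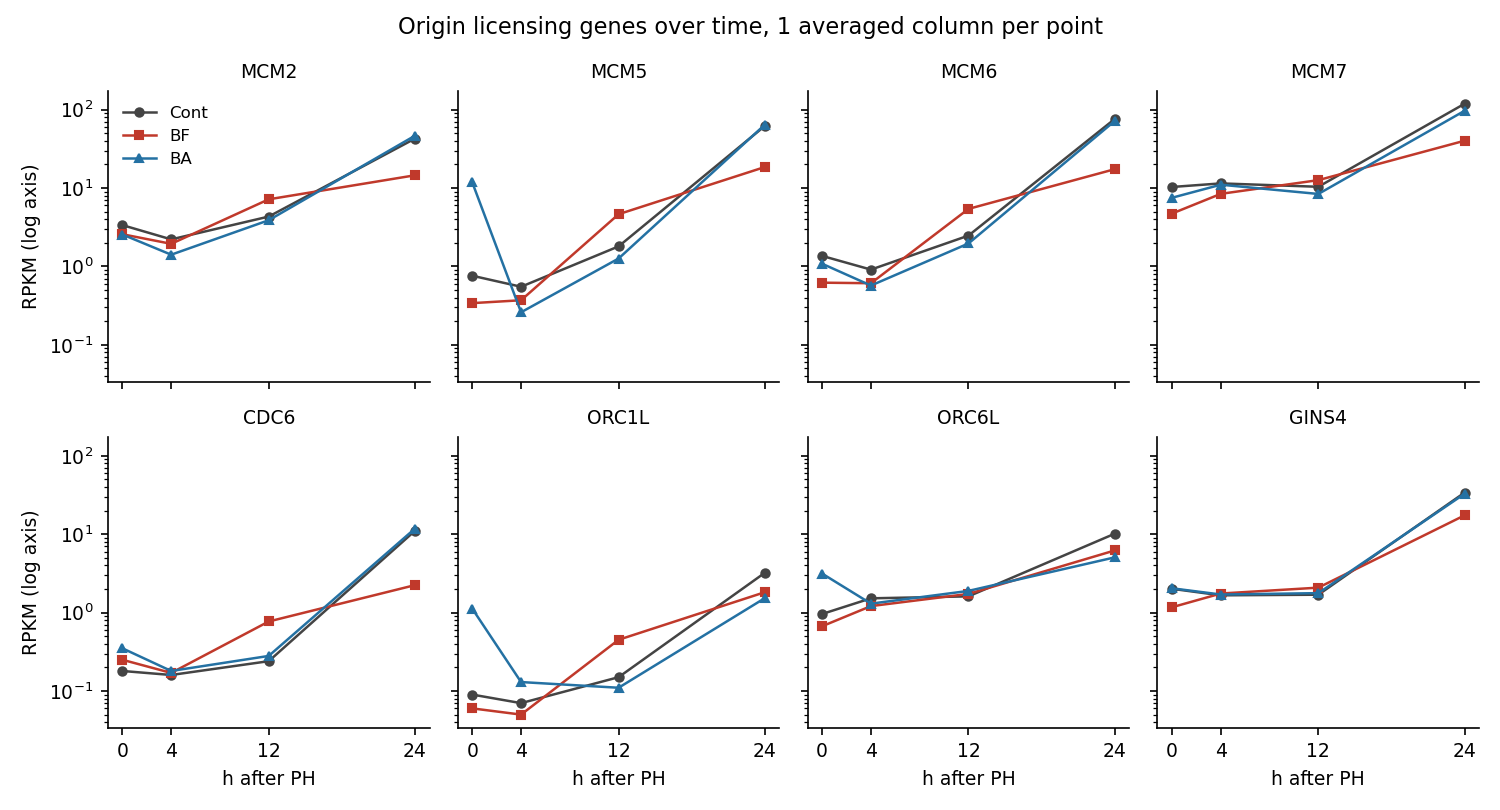
RPKM (log axis) of the 8 licensing genes against hours after PH, in the arms Cont, BF and BA; each point is 1 column, the authors' mean of 2 runs, so no error bar can be drawn. Levels stayed at or under 12.6 RPKM until 12 h, and by 24 h every gene was higher than at 0 h in its own arm, with MCM7 in Cont reaching 118.7 RPKM.

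MCM6, a subunit of the helicase ring, was at 1.36, 0.91, 2.47 and 75.9 RPKM at 0, 4, 12 and 24 h in Cont. In BF it was at 0.62, 0.61, 5.41 and 17.4 RPKM. The BA columns held 1.08, 0.57, 1.96 and 71.6 RPKM. The gene was thus low in every arm at 4 h, highest in BF at 12 h and lowest in BF at 24 h.

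MCM2, which sits beside MCM5 and MCM6 in the ring, was at 3.36, 2.21, 4.32 and 42.6 RPKM in Cont over the 4 times. Its BF columns held 2.57, 1.94, 7.17 and 14.5 RPKM. Those of BA held 2.55, 1.41, 3.88 and 46.5 RPKM. The order of the arms at 12 and 24 h was BF first at the earlier time and BF last at the later one, as for MCM6.

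MCM5, the ring subunit next to MCM2, was at 0.76, 0.55, 1.80 and 61.9 RPKM in Cont. The BF columns held 0.34, 0.37, 4.63 and 18.5 RPKM. In BA its values were 11.8, 0.26, 1.26 and 64.2 RPKM, so that the level before PH was 15.5 times the higher of the other arms and the level at 4 h was below both.

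MCM7, the most abundant of the helicase genes, was at 10.3, 11.4, 10.4 and 118.7 RPKM in Cont. It was at 4.72, 8.42, 12.6 and 40.1 RPKM in BF. The BA values were 7.51, 11.0, 8.39 and 96.5 RPKM. MCM7 alone among the MCM genes was already above 4 RPKM in every column.

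CDC6, the loader that opens the ring onto DNA, was at 0.18, 0.16, 0.24 and 11.1 RPKM in Cont. In BF it was at 0.25, 0.17, 0.77 and 2.24 RPKM. Its BA columns held 0.35, 0.18, 0.28 and 11.8 RPKM. At 24 h its BF value was 20.3% of Cont, the lowest share among the 8 genes.

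ORC1L, the large ATP-binding subunit of the origin complex, was at 0.09, 0.07, 0.15 and 3.22 RPKM in Cont. In BF it was at 0.06, 0.05, 0.45 and 1.82 RPKM. In BA it was at 1.12, 0.13, 0.11 and 1.53 RPKM. All its values before 24 h were 1.12 RPKM or less, and the highest of them was in BA before PH.

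ORC6L, the smallest ORC subunit, was at 0.96, 1.52, 1.61 and 10.1 RPKM in Cont. In BF it was at 0.67, 1.21, 1.73 and 6.20 RPKM. In BA it was at 3.14, 1.30, 1.89 and 5.06 RPKM. BA was thus its highest column at 0 h and its lowest at 24 h.

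GINS4, part of the complex that activates the loaded helicase, was at 2.01, 1.66, 1.69 and 33.9 RPKM in Cont. In BF it was at 1.17, 1.75, 2.08 and 17.4 RPKM. In BA it was at 2.04, 1.70, 1.77 and 32.8 RPKM. Up to 12 h it stood at 2.08 RPKM or less in every arm.

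The first comparison asked how the genes changed with time after PH. All 7 tested genes rose at 24 h. On log2(RPKM + 1), with limma across the 12 columns, arm as a block and Benjamini-Hochberg adjustment over 8459 genes, 7 of 7 were higher at 24 h than at 0 h with an adjusted p under 0.05. CDC6, at 0.16 to 0.77 RPKM in every column before 24 h, passed the filter only through its 24 h columns. Its call is thus not independent of the filter. With no filter on low values, 8 of 8 genes were called. Of all genes tested, 30.6% were called higher in this contrast. Against 12 h, all 7 were again higher at 24 h, where 43.6% of all genes tested were. The residual of this fit, with 6 degrees of freedom, holds the differences between arms in their course over time and the spread between rats together.

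The rise between 0 and 24 h was largest for MCM6, with a log2 ratio of 4.55 ± 0.48 (SE, adjusted p = 0.0003). It was 3.79 ± 0.74 for MCM5 (adjusted p = 0.00511) and 3.36 ± 0.20 for GINS4 (adjusted p = 9.77e-06). MCM7 followed with 3.26 ± 0.30 and MCM2 with 3.06 ± 0.37. The ranges of ± 1 SE of neighbours in this order overlapped, and the order depends on the 1 RPKM added. CDC6 rose by 2.66 ± 0.42 (adjusted p = 0.00208) and ORC6L by 1.72 ± 0.31 (adjusted p = 0.00352). With 0.1 RPKM added instead, CDC6 (4.26 ± 0.61) came above GINS4 (3.91 ± 0.25), MCM7 (3.41 ± 0.31) and MCM2 (3.40 ± 0.41). ORC1L, tested without the filter on low values, rose by 1.21 ± 0.29 (adjusted p = 0.019).

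The median gene tested also moved upward, by 0.21 between 0 and 24 h and by 0.33 between 12 and 24 h. After scaling every column to a common median gene, the calls over all genes between 24 and 0 h turned from 2587 higher and 469 lower to 874 higher and 1448 lower, and those between 24 and 12 h from 3684 and 152 to 632 and 934. All 7 licensing genes stayed called in both contrasts, beside 10.3% and 7.47% of all genes. Without the Cont columns MCM5 and ORC6L lost their calls in both contrasts, which left 5 of 7 (adjusted p for 24 against 0 h: 0.0774 and 0.057). Without the BF columns ORC6L lost its call against 0 h (adjusted p = 0.0751), which left 6 of 7.

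No licensing gene was called at the earlier times. At 4 h against 0 h, 0 of 7 passed, and 0 had an unadjusted p under 0.05, where 12.9% of all genes were called higher and 32.4% lower. At 12 h against 0 h, 0 of 7 passed and 0 had an unadjusted p under 0.05, where 9.03% of all genes were called higher and 22.5% lower. With rescaled columns the calls over all genes turned from 1090 higher and 2743 lower to 1531 and 2121 at 4 h, and from 764 and 1900 to 1362 and 1413 at 12 h, and 0 of 7 licensing genes were called at either time. Without the BF columns 1 gene, MCM6, passed at 12 h (adjusted p = 0.0445). Its log2 ratio was then 0.53 ± 0.12, smaller and with a smaller error than the 1.02 ± 0.48 over all 3 arms, which was not called.

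**Figure D2:**
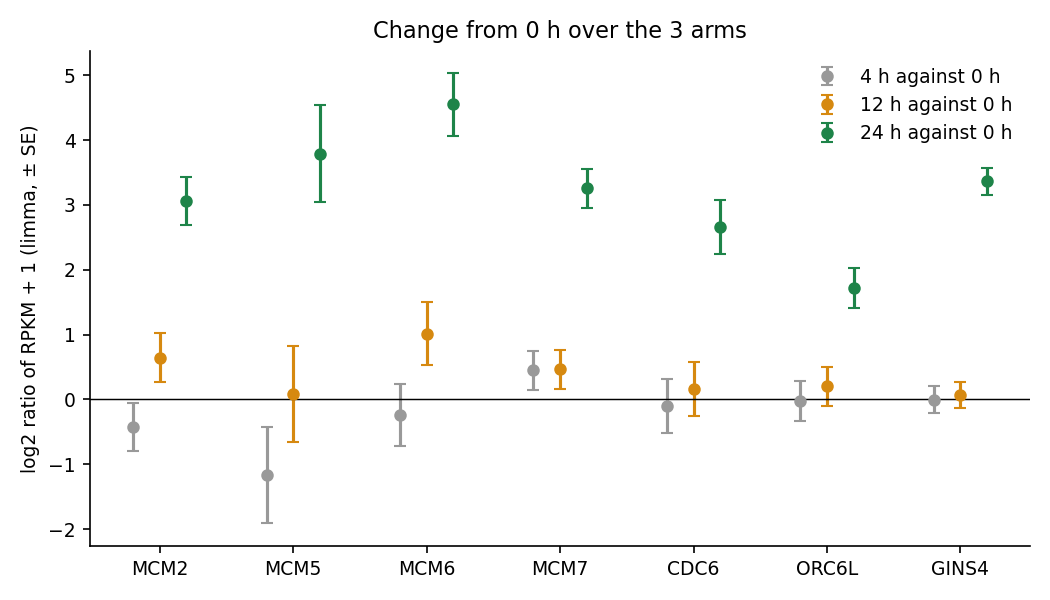
Log2 ratio of RPKM + 1 against 0 h at 4, 12 and 24 h (limma over the 3 arms, bars are ± 1 SE) for the 7 genes that passed the filter. All 24 h points lie between 1.72 (ORC6L) and 4.55 (MCM6), while the 4 h and 12 h points of every gene were not called.

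The second comparison asked how much of the rise was already present at 12 h. BF was the arm with the highest value at 12 h for 7 of the 8 genes, and for ORC6L it was BA. Over all genes tested BF was highest at that time for 30.2%. In BF all 8 genes were higher at 12 h than at 0 h, and 4 of them at least 2-fold on the log2(RPKM + 1) scale, where 2.46% of all genes tested were. In Cont 0 of 8 reached 2-fold (3.96% of all genes tested), and in BA 0 of 8 (1.29%).

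In plain RPKM, MCM5 in BF went from 0.34 to 4.63 between 0 and 12 h, a ratio of 13.6, against 2.37 in Cont. For MCM6 the ratio was 8.73 in BF, and 1.82 and 1.81 in Cont and BA. For CDC6 the ratios were 3.08 in BF (0.25 to 0.77 RPKM), 1.33 in Cont (0.18 to 0.24) and 0.80 in BA (0.35 to 0.28). With 1 RPKM added, the ratios in BF were 4.20 for MCM5, 3.96 for MCM6 and 1.42 for CDC6. The BF value exceeded both others at this step in all 8 genes. The starting level at 0 h was lowest in BF for 6 of the 8 genes. How many of all genes tested did either was not counted. On log2(RPKM + 1) the median gene tested moved between 0 and 12 h by -0.054 in BF, -0.16 in Cont and -0.13 in BA. At 0 h it stood in BF at -0.18 against Cont and -0.076 against BA.

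Compared at 12 h alone, BF was at least 2-fold above Cont on the scale with 1 RPKM added for 1 of 8 genes, MCM5 (1.84% of all genes tested), and 2-fold above BA for 2 of 8, MCM5 and MCM6 (1.16%). The median log2 ratio of the 8 genes at 12 h was 0.42 for BF against Cont and 0.50 for BF against BA, and -0.069 and -0.014 for the median gene tested. The 12 h column of BF is also the column with the acinar markers. None of these differences has a test.

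As a share of the total rise in RPKM from 0 to 24 h, the 12 h level in Cont stood at a median of 1.60% over the 8 genes, from -1.003% (GINS4) to 7.08% (ORC6L). In BF the median was 22.9%, from 5.61% (GINS4) to 38.5% (MCM2). In BA it was -0.75%, with MCM2 highest at 3.03%, and the lowest shares were those of the genes that started high, -246% for ORC1L, -65.1% for ORC6L and -20.0% for MCM5. The share depends on the 24 h level too, which was lowest in BF for 6 of the 8 genes.

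**Figure D3:**
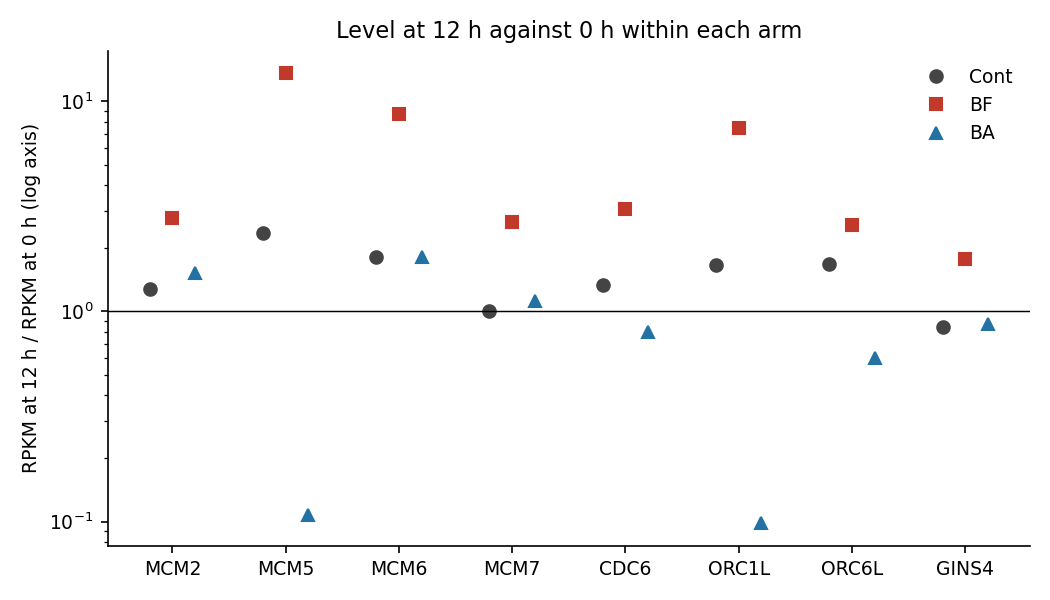
RPKM at 12 h divided by RPKM at 0 h (log axis) for each licensing gene in Cont, BF and BA, 1 column per point and no error known. The BF squares lie highest for every gene, up to 13.6 for MCM5, and 5 of the 8 BA triangles (MCM5, CDC6, ORC1L, ORC6L and GINS4) and the Cont circle of GINS4 lie below 1.

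From 12 to 24 h the order of the arms turned over. MCM6 at 24 h was 30.7 times its 12 h RPKM in Cont, 36.5 times in BA and 3.21 times in BF. For CDC6, from 12 h levels of 0.24, 0.28 and 0.77 RPKM, the ratios were 46.0 in Cont, 42.1 in BA and 2.91 in BF. For GINS4 they were 20.1, 18.5 and 8.36 in the same order. Among all 8 genes this step was smallest in BF except for ORC6L, with ratios of 6.30 in Cont, 3.58 in BF and 2.68 in BA. How many of all genes tested had their smallest step in BF was not counted.

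The third comparison set the arms side by side at 24 h. Lower values in BF than in Cont were seen for all 8 genes, with a median log2 ratio of -1.52, from -2.06 (MCM6) to -0.58 (ORC1L). The median gene tested stood at -0.11. At least 2-fold lower in BF were 5 of 8 (MCM2, MCM5, MCM6, MCM7 and CDC6), where 1.31% of all genes tested were. BF was the lowest of the 3 arms for 6 of 8 genes, and for 30.7% of all genes tested. As a share of Cont, BF was at 22.9% for MCM6, 29.9% for MCM5, 33.8% for MCM7 and 34.1% for MCM2. The 4 helicase subunits thus lay within a narrow band, with GINS4 above it at 51.3%.

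Against BA at 24 h, BF was lower for 6 of 8 genes, and at least 2-fold lower for the same 5 as against Cont, where 0.969% of all genes tested were. The median log2 ratio was -1.43, beside 0.059 for the median gene tested. The exceptions were ORC1L and ORC6L, which were higher in BF than in BA, at 118.95% and 123% of its level. Between BA and Cont at 24 h the median log2 ratio was -0.065, beside -0.17 for the median gene tested. On the scale with 1 RPKM added, 0 of 8 were at least 2-fold lower in BA, where 1.32% of all genes tested were. BA stood at 109% of Cont for MCM2, 104% for MCM5, 94.3% for MCM6, 81.3% for MCM7, 107% for CDC6 and 96.7% for GINS4. ORC1L and ORC6L stood at 47.5% and 49.9%, which in plain RPKM is more than 2-fold lower.

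The test of arms over all 4 times, with time as a block, does not see a difference that is present at 1 time only. For BF against Cont, 0 of 7 genes were called lower by limma, and 1 (MCM7) had an unadjusted p under 0.05 with an adjusted p of 0.184, where 0.485% of all genes tested were called lower. For BA against Cont, 0 of 7 were called higher and 0 had an unadjusted p under 0.05, as 0% of all genes tested were called higher. For BF against BA, 0 of 7 were called lower and 0 had an unadjusted p under 0.05, and 0% of all genes tested were called lower. BF was first at 12 h for 7 of the 8 genes and last at 24 h for 6 of the 8. A difference that turns over in this way stays in the residual of this fit.

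The fourth comparison placed ORC1L and ORC6L beside the other genes. The study used a named set of DNA replication genes to compare its arms. That set holds MCM2, MCM5, MCM6, MCM7, CDC6 and GINS4 under the symbols of the table, while ORC1L and ORC6L appear in it as ORC1 and ORC6. The 2 groups of genes differed in the BA columns. At 24 h the 6 genes had a median of 100.2% of Cont in BA, and the 2 ORC genes 48.7%. In BF against BA the 6 stood at a median of 30.0% and the ORC genes at 121%. Against Cont both groups were lower in BF, at medians of 31.8% and 58.8%.

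The other genes of the pathway, taken from lists of licensing, G1/S regulator and replication fork genes that were read from the same columns, split in the same way. Among the 33 genes named as in that set, members included, BA at 24 h was at a median of 98.7% of Cont, from 81.3% to 116%. Among the 20 genes outside the set it was at 54.7%, from 36.3% to 99.4%. BF exceeded BA in 0 of the 33 and in 18 of the 20, with medians for BF of 43.8% and 118.6% of BA. The median gene tested was itself not level at 24 h. On log2(RPKM + 1) it stood at 0.059 for BF against BA and at -0.17 for BA against Cont. Both classes were lower in BF than in Cont, at medians of 40.5% and 69.1%. The 4 other ORC genes under older symbols (ORC2L to ORC5L), whose levels at 24 h were 0.95 to 1.43 times those at 0 h in Cont, stood at 76.9% to 107% of Cont in BA.

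Within the pathway the split ran between close partners. GINS1, of the set, stood at 46.7 RPKM in Cont, 15.4 in BF and 46.1 in BA at 24 h. GINS3, of the same complex and outside the set, stood at 3.61, 3.13 and 2.38 RPKM. CDT1, the second loader, and GMNN, its inhibitor, are in the set, and BA was at 95.0% and 104% of Cont. Cyclin E drives the entry into S phase with CDK2. CCNE1 and CCNE2, outside the set, were at 36.3% and 50.3% of Cont in BA, and CDK2, in the set, at 90.7%. The kinase CDC7, in the set, was at 116%. CLSPN and TIMELESS, fork factors outside the set, were at 44.7% and 60.3%.

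The same reading was made over the whole table, an analysis added after the values above had been seen. Of genes at least 4-fold higher at 24 h than at 0 h in Cont, 56 are named in the set and 164 are not. This choice uses the Cont value at 24 h, of which the BA shares below are also taken. It favours shares under 100% in either class, by an amount that was not tested. The 56 stood at a median of 99.5% of Cont in BA at 24 h, with lower and upper deciles of 90.5% and 112%. The 164 stood at a median of 62.2%, with wider deciles of 46.6% and 124% that take in the range of the 56. BF exceeded BA in 1 of the 56 and in 130 of the 164, where the median gene tested stood at a log2 ratio of 0.059. How the set was drawn up is not given in the sources used here, the set was compared on these same samples, and no cause of the split was tested.

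**Figure D4:**
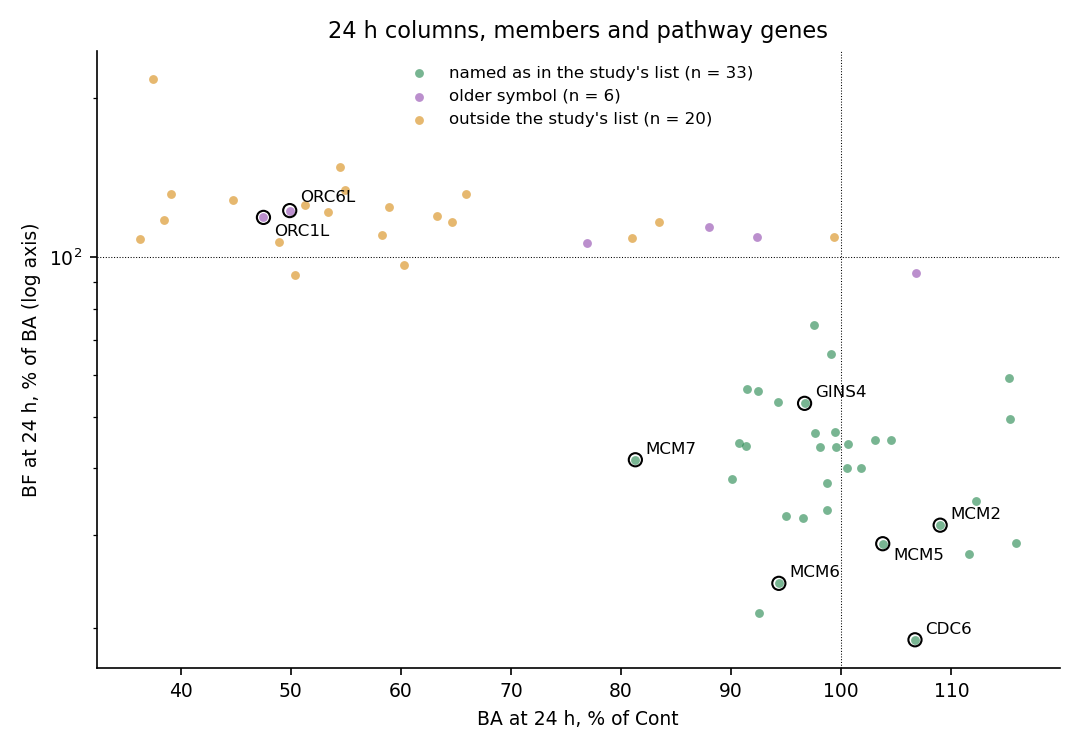
BF at 24 h as a percent of BA (log axis) against BA at 24 h as a percent of Cont, for the 8 licensing genes (ringed and named) and the other pathway genes, coloured by whether the study's DNA replication set names them as the table does. Set genes lie near 100% of Cont and below 100% of BA, and ORC1L and ORC6L lie with the genes outside the set, at 47.5% and 49.9% of Cont.

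The column BA at 0 h stood apart for some of the same genes. MCM5, ORC1L and ORC6L, 3 of the 8, were there at least 2 times both other arms in RPKM, where 1.56% of all genes tested were. Their ratios to the higher of the other arms were 15.5, 12.4 and 3.27. ORC1L did not pass the filter, so it is not among the genes behind that share. Its ratio rests on low values, 1.12 RPKM in BA beside 0.09 in Cont and 0.06 in BF. MCM2, MCM6, MCM7 and GINS4 were at 0.76, 0.79, 0.73 and 1.01 times the higher of the others, and CDC6 at 1.40. A high level before PH was thus seen in both ORC genes and in 1 helicase subunit out of 4.

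Among pathway genes outside the set, 12 of 20 were raised in the same way in BA at 0 h, and within the set 2 of 33, MCM5 and CDC7. Some of these stayed under 1 RPKM in that column, such as EXO1 (0.65 RPKM) and CDC7 (0.58 RPKM). UHRF1, which couples DNA methylation to replication, was at 4.54 RPKM in BA and 0.24 and 0.18 RPKM in Cont and BF. CHAF1B, a chromatin assembly factor of the fork, was at 3.05, 0.27 and 0.23 RPKM. The 2 classes did not part in this way at 12 h, when BF was the highest arm for 25 of 33 and 17 of 20. At 12 h the 3 raised licensing genes stood at 1.26 (MCM5), 0.11 (ORC1L) and 1.89 RPKM (ORC6L) in BA. Without the BA column at 0 h all 7 tested genes stayed called at 24 h against 0 h, and the log2 ratio of MCM5 was 4.82 ± 0.56 and that of ORC6L 2.17 ± 0.20.

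**Figure D5:**
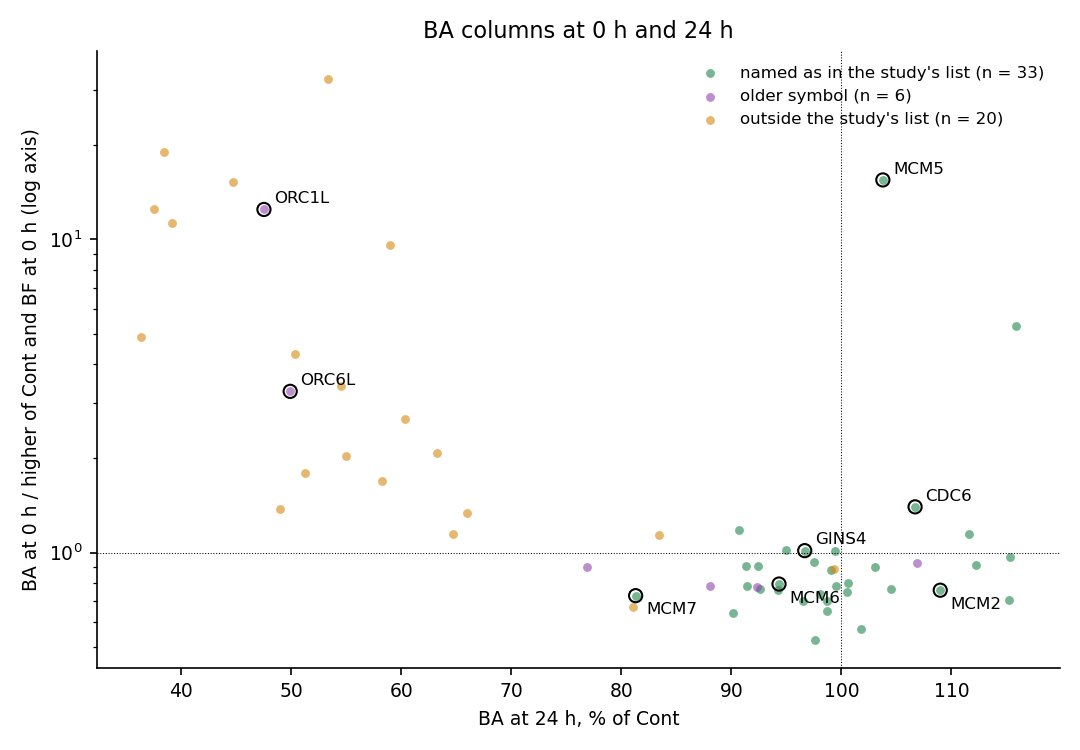
Level in BA at 0 h divided by the higher of Cont and BF at 0 h (log axis) against BA at 24 h as a percent of Cont, for the same genes and colours. MCM5 stands alone among the 6 ringed genes named in the set, at 15.5 times the other arms before PH and 104% of Cont at 24 h.

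Of the remaining pathway genes, counts by the same test were as follows. Of 14 tested licensing genes outside the members 11 were higher at 24 h than at 0 h and 0 lower. Of 6 regulators 6 were higher, and of 28 fork genes 26 were higher and 0 lower. The share called higher over all genes tested was 30.6%. Several of the called genes (CDC7, MCM8, GINS3, E2F1, FBXO5 and RRM2) stood at 1.22 RPKM or less in every column at 0 and 12 h. Like CDC6, they leaned on their 24 h columns to pass the filter, so their calls are not independent of it. GINS1 rose most among the licensing genes, by a log2 ratio of 4.30 ± 0.37 (adjusted p = 8.76e-05), and GMNN by 3.94 ± 0.29 (adjusted p = 3.34e-05). CDT1 rose by 3.08 ± 0.34 (adjusted p = 0.000379), MCM8 by 2.76 ± 0.24 and MCM10 by 1.81 ± 0.29. E2F1, a factor of the E2F family, rose by 3.51 ± 0.37 (adjusted p = 0.000287).

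The ORC subunits differed from one another in this respect. ORC2L rose by 0.36 ± 0.11 (adjusted p = 0.0317). ORC3L, ORC4L and ORC5L were not called, with log2 ratios of 0.04 ± 0.16, 0.15 ± 0.13 and 0.29 ± 0.14. ORC3L was at 4.42 RPKM in Cont at 0 h and 4.54 at 24 h, and ORC5L at 12.9 and 14.6. ORC1L and ORC6L went from 0.09 to 3.22 and from 0.96 to 10.1 RPKM in Cont over the same interval.

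At 12 h against 0 h, GMNN was the 1 licensing gene of 14 outside the members called higher, beside 9.03% of all genes tested. Its log2 ratio was 1.06 ± 0.29 (adjusted p = 0.0241). It was at 1.53 and 3.23 RPKM in Cont, 0.70 and 4.52 in BF, and 1.17 and 2.62 in BA. CDT1, which geminin inhibits, had a log2 ratio of 0.85 ± 0.34 (adjusted p = 0.0853). At 4 h against 0 h, 1 licensing gene of 14 was called higher, MCM10 (0.83 ± 0.29), beside 12.9% of all genes tested. Called lower were 4 of 14, WDHD1 (-1.26 ± 0.22), TIMELESS (-1.08 ± 0.34), ORC5L (-0.67 ± 0.14) and ORC3L (-0.47 ± 0.16). Of all genes tested, 32.4% were called lower at that time.

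PCNA, the sliding clamp of the fork, was lowest in BF at 24 h, as the 4 helicase genes were. It was at 27.3 and 381 RPKM in Cont at 0 and 24 h, 20.3 and 75.2 RPKM in BF, and 20.9 and 353 RPKM in BA. Its BF value at 24 h was 19.7% of Cont, beside 20.3% for CDC6 and 22.9% for MCM6.

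The search for similar profiles left out the members and the listed licensing, regulator and fork genes. Among the other genes tested, CENPN, INCENP, KIF18A, KNTC1, DSN1, CENPT, AURKB and NUF2 lay nearest to the mean of the 8 members. Pearson r with that mean ran from 0.9799 to 0.9864 over the 12 columns, on log2(RPKM + 1). These genes act at the kinetochore or in chromosome segregation, and 8 of 8 are named in the study's set. The same search was made with ORC1L and ORC6L alone as the profile, a choice made after their values had been seen. The 8 nearest were then ZFP367, DONSON, ASF1B, PKMYT1, NRM, CDCA7, RGD1559690 and BARD1, of which 0 are in the set. The share of set genes among all genes searched was not counted. Each licensing gene had an r of 0.923 (ORC1L) to 0.976 (GINS4) with the mean of the others. The points share their columns, their scaling and the rise at 24 h, and r is given as a description.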

How the data were processed

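RNA sequencing of whole rat liver was analysed for 3 arms at 4 times. Per the labels and the study's methods, poly(A) libraries were made with a TruSeq kit and read as 50-base single reads. The authors deposited 1 table of RPKM values with 2 decimals, each column being the mean of 2 runs. The submitters' processing notes name CASAVA, Bowtie 0.12.2 and the builds rn4 and mm8. The annotation and the weights of the runs are not given in the sources used here. Since depth is unknown, no counting interval can be given.

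The table lists 14692 genes, among them 1 without a value and 2303 at 0 throughout. Those averaging 1 RPKM or more (8459) were tested on log2(RPKM + 1), which understates changes of low genes, with limma 3.58.1 (trend, 2-sided, R 4.3.3), 6 residual degrees of freedom and an adjusted p under 0.05. Time contrasts had arm as a block and arm contrasts had time. Columns share no replicates, and the p-values measure the spread between columns that arm and time leave over. Differences at 1 time are ratios, and 2-fold or more was counted. The fit was tested on simulated data. Python 3.11.15, numpy 2.4.6, pandas 2.3.3 and matplotlib 3.10.9 were used. Promoter sequences are from RefSeq (GRCr8), a build other than that of the values, and windows were checked to run along the gene. Alternatives were another pseudocount, rescaled columns, no filter, no trend, no block, and columns, arms or times left out. Genes named are the members, the listed pathway genes, marker genes and the 8 nearest profiles outside the members and pathway lists. The members and lists were chosen with earlier results of these data known.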

Additional observations from a re-analysis of the deposited data

Results flagged for a closer look

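Some licensing genes moved in opposite directions in different arms. These differences have no test, as only 1 column exists per arm and time, and each is given as a difference of log2 ratios on log2(RPKM + 1).

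Between 0 and 4 h MCM5 went in the BA columns from 11.8 to 0.26 RPKM, and from 0.34 to 0.37 RPKM in BF, a difference of 3.37 between BF and BA. For ORC6L the difference between BF and BA was 1.25 over the same interval. GINS4 went from 1.17 to 1.75 RPKM in BF and from 2.01 to 1.66 RPKM in Cont, a difference of 0.52.

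Between 0 and 12 h the difference between BF and BA was 4.57 for MCM5, 0.58 for CDC6, 1.39 for ORC1L and 1.23 for ORC6L. For GINS4 the difference between BF and Cont was 0.67. The MCM5, ORC1L and ORC6L differences include the high BA values at 0 h.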

How the results depend on the processing

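Of 116 alternative values of the comparisons, 109 had the direction, and lay on the side of the threshold, of the reported value, or moved by less than 1 SD over the genes where there was no test. Among single genes 149 of 154 did, and the other 5 lost their call (MCM5 and ORC6L without an arm). The 109 include counts of called genes that fell from 7 to 5 or 6 when an arm was left out. They also include the arm contrasts over the 4 times, which were 0 in every setting and do not see a difference at 1 time only. Leaving out an arm gave 5 to 7 called genes for 24 against 0 h and for 24 against 12 h, 0 to 1 for 12 against 0 h and 0 for 4 against 0 h. Without ORC1L and ORC6L the median log2 ratio of BA against Cont at 24 h turned from -0.065 to 0.0025, that of 12 against 0 h in BA from -0.11 to 0.033, and the median share of the rise present at 12 h in BA from -0.75% to 0.19%. Columns rescaled on their median gene turned the BA against Cont median at 24 h to 0.13 and moved the BF share at 12 h from 22.9% to 32.8%. With a pseudocount of 0.1 RPKM, 1 gene in place of 0 was at least 2-fold lower in BA than in Cont at 24 h. This count follows from the RPKM added. In plain RPKM, ORC1L and ORC6L were at 47.5% and 49.9% of Cont, and with 1 RPKM added at log2 ratios of -0.74 and -0.88. The cause of the other shifts was not tested. Leaving out the BA column at 0 h, the BA column at 4 h or the BF column at 12 h, chosen after seeing the data, changed no count of called licensing genes. The filter on low values enters no ratio of a member. The reported fits have arm or time as a block, and without it the counts of called licensing genes were the same. With 1 averaged column per arm and time, rats could not be left out in turn, and values under 1 RPKM rest on an unknown number of reads.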
